A study of Mus musculus with 12 samples.

Results

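Among 10314 cells of a mouse mammary tumor called MT2, 152 carried transcripts of blood-derived immune cells. They were selected on those transcripts: a cell was taken if at least 3 of 7 genes (Ptprc, Tyrobp, Laptm5, Fcer1g, Ctss, Lyz2 and Cd52) each had 1 or more unique molecular identifiers (UMIs, tags that let each captured RNA molecule be counted once), or if it had 20 or more UMIs of Igkc, the immunoglobulin kappa constant chain. The whole series held 21157 cells. All 152 cells entered through the first route, and the Igkc route was empty, since Igkc had 0 UMIs in MT2. The remaining 10162 MT2 cells are called the other MT2 cells here.

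The assay was Drop-seq, which captures each single cell in a droplet with a barcoded bead and reads the 3′ end of polyadenylated RNA. The 2 mice had a mixed background (C57BL/6 with 129/Sv) and carry MMTV-Cre, a recombinase driven by a mouse mammary tumor virus promoter active in mammary epithelium, together with Brca1 flox/flox alleles, so all 4 groups share both and no mouse with intact Brca1 was included. The labels give no age for these mice. Mammary tumors MT1 and MT2 and the mammary glands MG1 and MG2 of the same mice gave 5, 3, 2 and 2 libraries. MT2 is 1 tumor of 1 mouse, its 3 libraries are replicates of that tumor only, and tests over them measure the spread between libraries, not between mice. Before loading, the cells were treated with red cell lysis buffer and depleted of hematopoietic and endothelial cells with an epithelial enrichment kit. The immune cells described here are therefore those left after a step meant to remove them, and neither their share nor their mix of types can be read as that of the intact tumor.

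Macrophages engulf debris and microbes, display peptides on major histocompatibility complex (MHC) class II molecules, and secrete the complement protein C1q. They depend on the growth factor CSF1 and its receptor Csf1r. The same precursors, when given CSF1 and the tumor necrosis factor family ligand RANKL (Tnfsf11), can take another course and express acid phosphatase and collagen-degrading proteases. Plasma cells secrete antibody and are filled with immunoglobulin transcripts.

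Replicates 1, 2 and 3 of MT2 held 38 of 2652, 48 of 4874 and 66 of 2788 cells that met the rule, shares of 1.43% (95% exact binomial interval 1.02 to 1.96), 0.985% (0.727 to 1.30) and 2.37% (1.84 to 3.00). The highest share lay in replicate 3 and its interval did not overlap that of replicate 2. With each cell thinned to 1000 UMIs the shares were lower, at 1.06%, 0.492% and 1.61%. Intervals and detection limits here cover counting error only. The 3 libraries held 13629813 to 14841414 UMIs in all, of which the immune cells gave 109784, 166600 and 214162. A median immune cell had 2334 UMIs against 3098.5 in the other MT2 cells, with medians of 2328.5, 2396.5 and 2332 by replicate against 4665.5, 2329 and 3939.5, so replicate 2 did not share the difference. Between 1 and 7 cell barcodes were shared by pairs of MT2 libraries, and 0 of these belonged to an immune cell. In the other groups 12 cells met the rule, 2 in MG1, 4 in MG2 and 6 in MT1, too few for a test of their genes against MT2. Replicate 3 of MT1 had 0 such cells among 2494, where the exact interval reaches 0.148%.

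**Figure D1:**
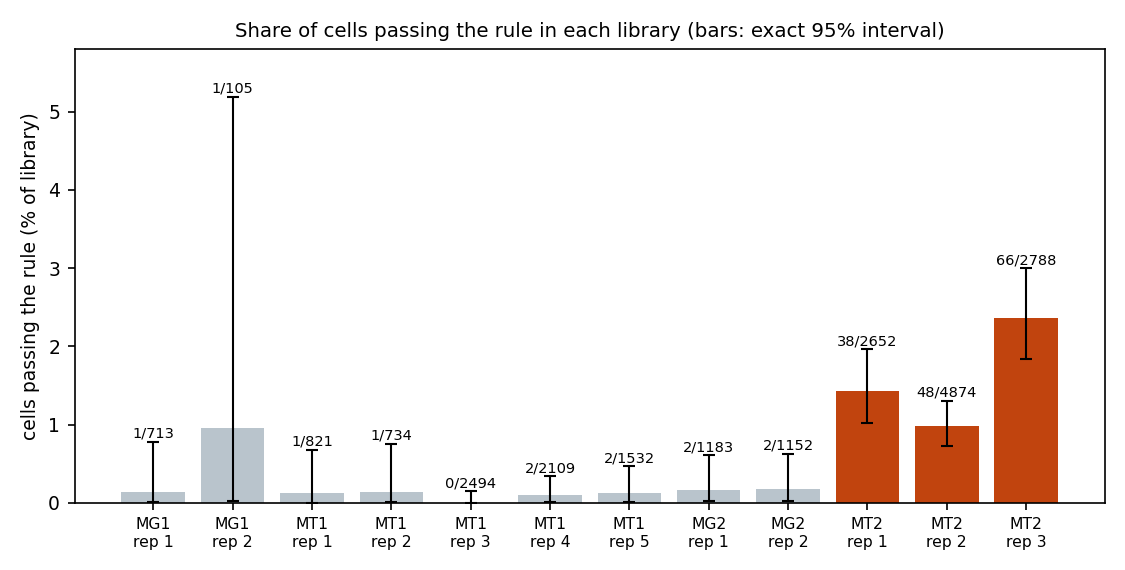
Percent of cells of each library (vertical axis) that met the selection rule in the 12 libraries, with exact 95% intervals as bars and the number of cells above each. The 3 MT2 libraries held 38, 48 and 66 such cells, and every other library held 0 to 2.

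The 7 genes used for the selection are given as a description. Lyz2, a lysozyme of macrophages and granulocytes, was summed per library and reached 4901, 3217 and 6304 CPM (UMIs of a gene in 1e+06 UMIs of its class and library) in the immune cells of replicates 1 to 3, against 2.72, 7.65 and 5.07 CPM in the other MT2 cells. Tyrobp, an adaptor of activating immune receptors, reached 838, 576 and 943 CPM against 1.7, 1.00 and 1.12. Ptprc, the pan-leukocyte antigen CD45, reached 629, 246 and 355 CPM against 0.204, 1.00 and 0.149. Each of them was seen in 72 or more cells: Lyz2 was seen in 120 of the 152 immune cells while Ctss, a lysosomal protease, was seen in 125, Laptm5 in 123, Tyrobp in 119, Fcer1g in 102, Ptprc in 90 and Cd52 in 72. How the counting divided reads between Lyz2 and its close relative Lyz1 is not given in the sources used here. Just inside the threshold were 27 cells with exactly 3 of the genes and a median of 7 UMIs of them, and just outside were 20 cells with exactly 2 and a median of 3.5.

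As a class, the immune cells were then set against the other MT2 cells by summing UMIs per library. Because the cells were chosen on immune genes, genes that accompany these are higher by construction, so the levels are a description and the calls of the edgeR quasi-likelihood test (adjusted p under 0.05, library as a block) are given only as counts. Of 12052 genes tested outside the selecting genes, 831 were called higher in the immune cells, 6.9% of those tested, and 1013 lower, 8.41%. Without replicate 3 the counts were 346 and 183, without replicate 1 they were 548 and 439, and DESeq2 gave 665 and 227. Of the 20 listed macrophage genes, 17 passed the filter on low counts, and these 17 were called higher. A gene seen almost only in the immune cells passes that filter through them, so these counts support nothing further. The same holds for the genes called higher in the immune gene lists given below for this contrast. The median log2 fold change of the 17 was 7.48, against -0.25 over all genes tested.

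The complement genes C1qa, C1qb and C1qc, which lie side by side on chromosome 4, marked many of the immune cells. C1qb (chr4:136880129-136886187, minus strand, GRCm38) reached 610.3, 276 and 560.3 CPM in the immune cells of the 3 libraries against 0.339, 0.715 and 0.745 in the other MT2 cells, and was seen in 75 of 152 immune cells and 23 of 10162 other cells. Pf4, a chemokine of platelets and macrophages, reached 228, 312 and 644 CPM against 0.339, 0.572 and 0.596. No immune value overlapped a value of the other cells for either gene. Csf1r, the receptor that macrophages need to survive, reached 264, 120.0 and 154 CPM against 5.7, 5.93 and 4.77, a pooled ratio of 30.5. Cd68, a lysosomal glycoprotein, reached 319, 348 and 378 CPM against 2.65, 4.29 and 3.13 and varied less between the libraries than the other macrophage genes given here. Mrc1, the mannose receptor, and Apoe, a lipid carrier, were also present in the other MT2 cells at 38.1 and 34.7 CPM, and their pooled ratios were only 12.9 and 12.4. Adgre1 (F4/80) had 8 UMIs in the immune cells and Cx3cr1, the fractalkine receptor, 12, and both fell below the filter. Cd163, a hemoglobin scavenger receptor, had 0 UMIs in them, where 3 UMIs would be 6.12 CPM.

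MHC class II transcripts were the other large component. H2-Aa (chr17:34282744-34287823, minus strand), the alpha chain of I-A, reached 1494, 414 and 1083 CPM in the immune cells against 0.136, 0.93 and 1.49 in the other MT2 cells. Its partner H2-Ab1 reached 1530.3, 330.1 and 1125 CPM against 1.15, 2.07 and 1.71. Cd74, the invariant chain that guards the peptide groove, reached 902, 192 and 971 CPM against 0.543, 0.787 and 1.42. Replicate 2 was the lowest of the 3 immune sums for these 3 genes and for H2-Eb1, at 162 CPM against 838 and 569.7. Of 16 listed antigen presentation genes 14 had a row in the table and 10 passed the filter, of which 9 were called higher (6.9% over all genes tested) and Cd40, with 3 UMIs in the immune cells, was not called. Cd86, a costimulatory ligand for T cells, had 34 UMIs in the immune cells and 2 in the other MT2 cells, a ratio of 1460.1 with a counting interval of 374 to 12544. At least 2 of H2-Aa, H2-Ab1, H2-Eb1 and Cd74 were seen in 66 of the 152 immune cells (43.4%) and in 4 of 10162 other cells. MHC class I transcripts were found in both classes. B2m, the light chain, stood at 1421, 1999 and 1877 CPM against 1481, 1931 and 1959 with overlapping libraries. H2-K1, a heavy chain, stood at 437, 336 and 420.2 against 135 to 174 without overlap. Of 9 class I genes tested 2 were called higher, H2-K1 and H2-D1 (6.9% over all genes tested), 0 lower and 7 neither. How reads were divided among near-identical MHC genes such as H2-K1 and H2-D1, and whether strand was used in counting, is not given in the sources used here, so single-gene values of these are uncertain.

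Class II genes are switched on together through short boxes just upstream of their start sites. The 150 bases before the start of the class II genes with the most UMIs that have an entry are shown with the 8 letters CTGATTGG, the core of the Y box, in capitals (RefSeq, GRCm38.p6, each on the strand of its gene, H2-Aa at chr17:34287824-34287973 on the minus strand and H2-Eb1 at chr17:34305717-34305866 on the plus strand).
H2-Aa: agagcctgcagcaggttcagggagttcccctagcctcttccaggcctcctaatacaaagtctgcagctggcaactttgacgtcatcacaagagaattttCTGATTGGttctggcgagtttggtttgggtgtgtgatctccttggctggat
H2-Eb1: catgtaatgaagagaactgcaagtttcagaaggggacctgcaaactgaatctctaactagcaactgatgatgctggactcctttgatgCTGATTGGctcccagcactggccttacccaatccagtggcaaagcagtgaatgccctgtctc
The box began 51 bases before the H2-Aa start and 62 before the H2-Eb1 start. Searched on both strands in the 250 bases before the start, the letters were found in 4 of 11 entries for the 10 listed antigen presentation genes with one (H2-Aa, H2-Eb1, H2-Eb2 and H2-Oa) and in 3.83% of all 32851 entries. The match overlaps no other motif searched, and it describes the letters and not a bound factor.

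Cytokine and chemokine genes were split between the immune cells and the tumor. Ccl6 and Ccl9, chemokines of myeloid cells, reached 401, 132 and 565 and 747, 324 and 598 CPM in the immune cells, against at most 0.745 and 1.93 in the other MT2 cells. Il1b, an inflammatory cytokine, reached 164, 42 and 187 CPM against 0.136, 0.215 and 0.149. These genes were near 0 outside the immune cells, whereas several secreted factors were not. Cxcl1 and Cxcl2, chemokines for neutrophils, stood at pooled levels of 2234 and 3268 CPM against 4749 and 3869, and Spp1 (osteopontin) at 2815 against 3599.6. Of 25 listed chemokines and cytokines, 21 passed the filter, with 11 called higher (6.9% over all genes tested) and 5 lower (8.41%). By library the sum of this list stood at 4718, 11050 and 8064 CPM against 8894, 10484 and 10958, so replicate 2 did not share the lower sum. Among checkpoint genes, Havcr2 (TIM-3) reached 282, 78 and 173 CPM against 2.31, 2.79 and 1.94, and Cd274 (PD-L1) had 13 UMIs in the immune cells. Of 4 checkpoint genes tested 3 were called higher, Havcr2, Vsir and Cd274, beside 6.9% over all genes tested.

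Several ligands and receptors of the myeloid lineage lay on opposite sides. Csf1 was seen in 7049 of the other MT2 cells at 527, 483 and 513 CPM and stood at 27.3, 378 and 210.1 CPM in the immune cells, while its receptor had the reverse pattern described above. Ccr2, the receptor that draws monocytes from blood, had 42 UMIs in the immune cells and 2 in the other MT2 cells, a ratio of 1804 with a counting interval of 469 to 15382, and UMIs of its ligand Ccl2 were counted in both classes at pooled levels of 693 and 821 CPM. Of the 25 listed ligands and receptors 23 passed the filter, with 12 called higher and 5 lower, beside 6.9% and 8.41% over all genes tested. Receptors such as Ccr2 passed the filter through the immune cells, so these counts are a description. The 12 included the receptors and surface proteins Csf1r, Csf2ra, Csf2rb, Ccr1, Ccr2, Sirpa, Mertk, C3ar1, C5ar1, Cxcr4 and Itga4, and the 5 called lower were Csf1, Ccl2, C3, Cxcl12 and Vcam1.

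The 12 genes with the largest fold changes among those called higher, with at least 30 UMIs and higher in each library, were Plbd1, F10, Ccr2, Clec4n, Mgl2, Ocstamp, Cybb, H2-Aa, Cd86, Lilr4b, Plek and Mpeg1. Clec4n, a lectin receptor for fungal sugars (dectin-2), had 232 UMIs in the immune cells and 15 in the other MT2 cells. Cybb, the catalytic subunit of the phagocyte oxidase, stood at 301, 24 and 196 CPM against 0.0679, 0.215 and 0.0745, and Mpeg1, a pore-forming protein of phagocytes, at 228, 102 and 224 against 0.0679, 0.286 and 0.149. Several of these genes are known from phagocytes, and Ocstamp, a membrane protein needed for the fusion of osteoclast precursors, is taken up with the C1q-negative cells. The 8 genes with the largest negative changes, among them Pacsin3, Rras2, Glis3, Lix1, Cdr2l, Tcaf2 and Cck, had 0 UMIs in the immune cells. Pacsin3 stood at 21.9, 23.8 and 24.7 CPM in the other MT2 cells, at least 3.83-fold higher than 3 UMIs over the immune class would allow, and Cck, the gut hormone cholecystokinin, was at least 2.43-fold higher.

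Over all genes tested 6.9% were called higher and 8.41% lower, with a median log2 fold change of -0.25, and 2 further lists are given beside this. Of the 16 lysosome genes, which serve digestion of engulfed material, 9 were called higher (among them Ctsd, Ctsz, Ctsc, Ctsh, Grn, Psap and Npc2) and Lamp2 lower, with a median log2 fold change of 0.81. Ctsc, cathepsin C, stood at 428, 276 and 392 CPM against 59.8, 77.3 and 73, and Npc2, which exports cholesterol from lysosomes, at 1430.1, 990.4 and 1116 against 586, 723 and 636. Of 18 proliferation genes 0 were called higher, 5 lower (Top2a, Ccna2, Birc5, Cenpf and Cenpe) and 13 neither, with a median of -0.77. Top2a, a topoisomerase of dividing cells, stood at 373, 378 and 462 CPM against 624, 637 and 469, and Mki67 at 592, 240.1 and 275 against 364, 310.1 and 238.

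**Figure D2:**
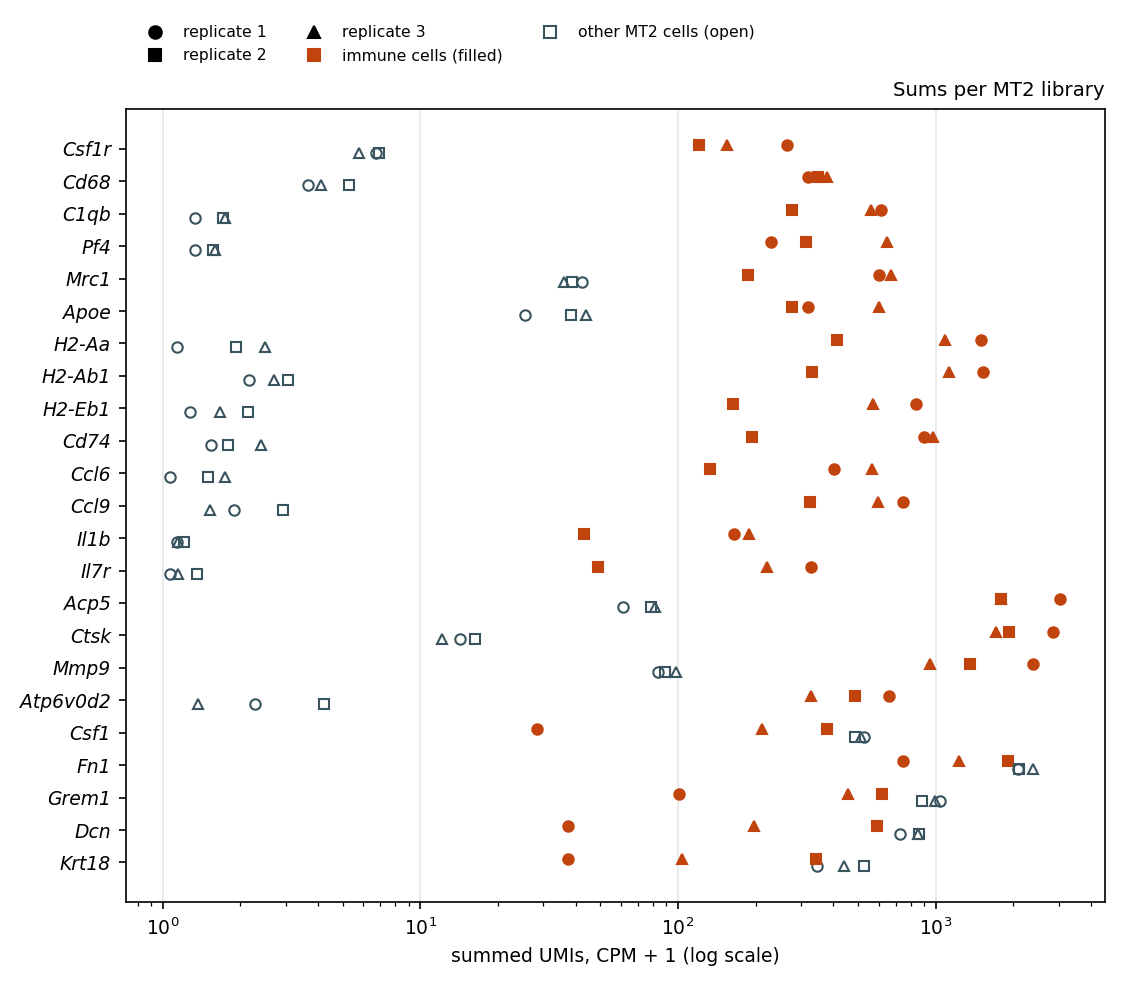
Summed UMIs in CPM plus 1 (horizontal log axis) of 23 genes in the immune cells (filled) and the other cells (open) of each MT2 library, 1 symbol shape per replicate. From Csf1r to Atp6v0d2 each immune sum lay above each sum of the other cells, and the last 5 genes, Csf1 to Krt18, lay lower in the immune sums, with Krt18 at 342 CPM in the immune cells of replicate 2 near 345 in the other cells of replicate 1.

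Genes of the tumor cells were present in the immune cells, several of them at lower levels. Grem1, an antagonist of bone morphogenetic proteins, stood at 100.2, 618 and 458 CPM in the immune cells against 1036, 880.5 and 993 in the other MT2 cells. Dcn, a matrix proteoglycan, stood at 36.4, 588 and 196 CPM against 724, 864 and 853, and Krt18, a keratin, at 36.4, 342 and 103 against 345, 525 and 439. Replicate 1 was the lowest and replicate 2 the highest in the immune sums of all 3. The 12 listed genes of the MT2 tumor cells made up 1.08% of immune UMIs (10757 CPM) and 1.35% of the others (13549 CPM), with Prl2c2 and Prl2c3 at 0 UMIs in the immune cells. Vim and Fn1 had the most UMIs of this list in the immune cells. Fn1 was called higher in the C1q-positive than in the C1q-negative immune cells described further on. The share of the list is therefore not a measure of tumor cell RNA alone. By library the list stood at 7861, 12935 and 10548 CPM against 13549, 12880.5 and 14245, so replicate 2 did not share the lower sum. Of the 11 tested, 7 were called lower (8.41% over all genes tested), 0 higher, and Prl2c2, Mrc2, Col1a1 and Vim were not called. The median share of this list in a cell's UMIs was 1.05% in cells with 3 of the selecting genes and 0.757% in cells with 7. No doublet caller was run, and the part of tumor cell RNA in the droplets of the immune cells was not tested.

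Evidence for lymphocytes, granulocytes and plasma cells was thin in the selected cells. The rule itself limits this, since the lists were counted only in cells with at least 3 of the 7 selecting genes. Cells with fewer of them, or with fewer than the 800 detected genes that each cell here has, were not examined. The lists thus cannot show whether such cells were rare in the tumor. In the table, 11 of 19 listed plasma cell genes had a row, and 8 of these (Jchain, Ighm, Ighg1, Ighg2b, Ighg2c, Mzb1, Irf4 and Derl3) had 0 UMIs in the immune cells. Xbp1, a secretory stress factor used by many cells, stood at 109, 102 and 140.1 CPM against 49.9, 56.3 and 56.4, Prdm1 had 27 UMIs, and Sdc1 (syndecan 1), which epithelial cells also make, was lower at 155, 204 and 191 against 290.2, 269 and 329. None of the selected cells can thus be called a plasma cell from these data. Such a 0 has a limit, since the authors removed genes seen in few cells of a count table: of 21743 genes, 2057 were at 0 in MT2, 0 were seen in exactly 1 MT2 cell, 20 in exactly 2 and 175 in exactly 3, so a gene held by very few cells, Igkc included, may be listed at 0. Outside MT2, cells with 1400, 235 and 65 Igkc UMIs were found in replicates 2 and 1 of MG1 and in replicate 1 of MG2.

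The T cell list had 7 of 14 genes in the table, and Trac, Trbc2, Cd247 and Lck were at 0 in the immune cells. The 2 genes tested were both called higher (6.9% over all genes tested), Lat with 4 UMIs in the immune cells and Il7r, the interleukin 7 receptor best known from lymphocytes, at 328, 48 and 219 CPM against 0.0679, 0.358 and 0.149. Il7r was seen in 46 immune cells, of which 29 carried 2 or more C1q genes. Of the B cell list, Cd79a, Cd79b, Ms4a1 and Pax5 were at 0. The neutrophil gene S100a9 had 0 UMIs, and S100a8 had 19, a lower level than in the other cells (38.7 against 80.7 CPM). Endothelial genes had 2 UMIs in all. Of dendritic cell genes, Flt3, Zbtb46 and Batf3 were at 0, and Itgax (CD11c), shared with macrophages, had 22 UMIs in 17 cells. Itgax and Irf8, a transcription factor of dendritic cells and other myeloid cells with 12 UMIs in 5 cells, were called higher, and Fscn1 and Ly75 lower, of 4 tested, beside 6.9% and 8.41% over all genes tested. Ccl17, a chemokine of some dendritic cells and macrophages, reached 328, 144 and 56 CPM but its 72 UMIs lay in 13 cells. Of 4 monocyte genes tested 3 were called higher, Ccr2, Itgam (CD11b) with 78 UMIs, and Plac8 with 12 UMIs in 1 cell, and Vcan lower, beside 6.9% and 8.41% over all genes tested. Cdh1 (E-cadherin) was the only epithelial gene called higher, at 109, 30.01 and 74.7 CPM against 0.815, 1.43 and 0.745, in 27 cells, while Epcam had 5 UMIs in the immune cells.

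The immune cells were not uniform. C1q genes separated 69 C1q-positive cells, with at least 2 of C1qa, C1qb and C1qc, from 61 C1q-negative cells with none, and 22 cells with exactly 1 were left out. Replicates 1 to 3 held 19, 16 and 34 positive and 14, 22 and 25 negative cells. C1q-negative cells had more UMIs, with a median of 3104 against 2171. Since both classes come from the same libraries, sums per class and library were tested with library as a block for genes other than the C1q and selecting genes. The split itself was made on counts of these cells, and the p-values speak only for the spread over 3 libraries of 1 tumor. A gene low in 1 class passes the filter on low counts through the other, so calls of such genes are a description. Of 1421 genes tested, 66 were higher in C1q-positive cells (4.64%) and 81 were higher in C1q-negative cells (5.7%). DESeq2 gave 24 and 14, the fit without the library block 25 and 24, and the fit without replicate 2 gave 107 and 138.

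C1q-positive cells had more transcripts of H2-Aa, Cd74, Apoe, Pf4 and Mrc1, in a contrast that lost most of its calls without 30 C1q-negative cells described further on. H2-Aa stood at 2385, 1021 and 1921 CPM in C1q-positive cells against 314, 189 and 301 in C1q-negative cells, a log2 fold change of 2.72 (SE 0.20, adjusted p = 3.37e-06). Cd74 stood at 1605, 348 and 1741 CPM against 166, 137 and 247 (log2 fold change 2.64, SE 0.30, adjusted p = 0.000134). The lowest positive value of H2-Aa lay above the highest negative one, and the same held for Cd74, with replicate 2 lowest among the positive sums. Apoe stood at 520.4, 534 and 850.3 CPM against 18.5, 42.1 and 96.7 (log2 fold change 3.53, SE 0.34). Pf4 stood at 217, 975 and 1080.4 CPM against 73.9, 0 and 139.7 (log2 fold change 3.55, SE 0.55), and Mrc1 at 824, 487 and 1120.5 against 277, 63.1 and 161 (log2 fold change 2.43, SE 0.31). Apoe, Pf4 and Mrc1 were low in some C1q-negative sums and passed the filter through the C1q-positive class, so their changes are a description. The 12 largest changes in this direction were those of Aif1, Pf4, Apoe, Clec7a, H2-Aa, Cd74, H2-Eb1, Mpeg1, Mmp12, Pld4, Ms4a6c and Mrc1. Aif1, an actin-binding protein of macrophages, had 54 UMIs against 3, a ratio of 23.1 with a counting interval of 7.48 to 115. Of the antigen presentation list 4 of 5 tested genes were higher (H2-Aa, H2-Ab1, H2-Eb1 and Cd74) and 0 lower, beside 4.64% and 5.7% over all genes tested, with a median log2 fold change of 2.63 against 0.01 over all genes tested. Of the macrophage list 6 of 11 tested were higher, beside the same 4.64% (among them Cd14, Mrc1, Aif1, Pf4 and Apoe), and Csf1r, Cd68, Ms4a7, Fcgr3 and Spi1 did not pass. By cell, 43 of 69 C1q-positive cells (62.3%, 95% exact interval 49.8 to 73.7) and 12 of 61 C1q-negative cells (19.7%, 10.6 to 31.8) had 2 or more class II genes. Without the 30 cells described further on, of which 1 had 2 or more, the C1q-negative share was 11 of 31 (35.5%, 19.2 to 54.6).

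The 8 largest changes in the other direction, higher in C1q-negative cells, were those of Ckb, Ctsk, Mmp9, Acp5, Slc9b2, Atp6v0d2, Hsd17b10 and Car2. Acp5 (chr9:22126727-22135711, minus strand), the tartrate-resistant acid phosphatase, stood at 6099, 3029.9 and 3911 CPM in C1q-negative cells against 65, 69.6 and 150.1 in C1q-positive cells, a log2 fold change of -5.25 (SE 0.27). Ctsk (chr3:95499256-95509362, plus strand), cathepsin K, which cuts bone collagen, stood at 5767, 3367 and 3932 CPM with 998 UMIs against 1 UMI, a ratio of 779 with a counting interval of 139.6 to 30812. Mmp9, a gelatinase, stood at 4824, 2325 and 2117 CPM against 0, 92.9 and 60.02 (log2 fold change -5.63, SE 0.40). The classes were far apart in each library for these 3 genes. Atp6v0d2, a proton pump subunit, stood at 1312, 810.1 and 677 CPM against 21.7, 69.6 and 60.02 (log2 fold change -3.95, SE 0.37), and Car2, carbonic anhydrase 2, at 647, 473 and 258 against 0, 92.9 and 30.01 (log2 fold change -3.32, SE 0.52). Acp5, Mmp9, Atp6v0d2 and Car2 were low in C1q-positive cells and passed the filter through the C1q-negative class, so their changes are a description. Ckb, a creatine kinase, had 335 UMIs against 0, at least 87.2-fold higher than a floor of 3 UMIs over the C1q-positive class. Acp5, Ctsk, Mmp9, Atp6v0d2 and Car2 are known together from osteoclasts, the bone-resorbing relatives of macrophages.

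These transcripts lay in few cells. Counting Acp5, Ctsk, Mmp9, Ckb and Atp6v0d2, a group chosen after their values were seen and given as a description, 30 immune cells had 3 or more of the 5 genes, 10, 7 and 13 in replicates 1 to 3, and 18 of them had all 5. They are called the Acp5-Ctsk cells. The 5 genes came from those highest in C1q-negative cells, so a lack of C1q in these cells follows in large part from the choice: 0 of the 30 had a UMI of C1qa, C1qb or C1qc, beside 57 of the 74 immune cells with none of the 5 genes. Together they held 962 of the 1017 Acp5 UMIs, 992 of the 1000 Ctsk UMIs and 335 of the 335 Ckb UMIs in the immune cells. Their median depth was 3926 UMIs, against 2171 in C1q-positive cells and 2210 in the remaining 53 immune cells.

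**Figure D3:**
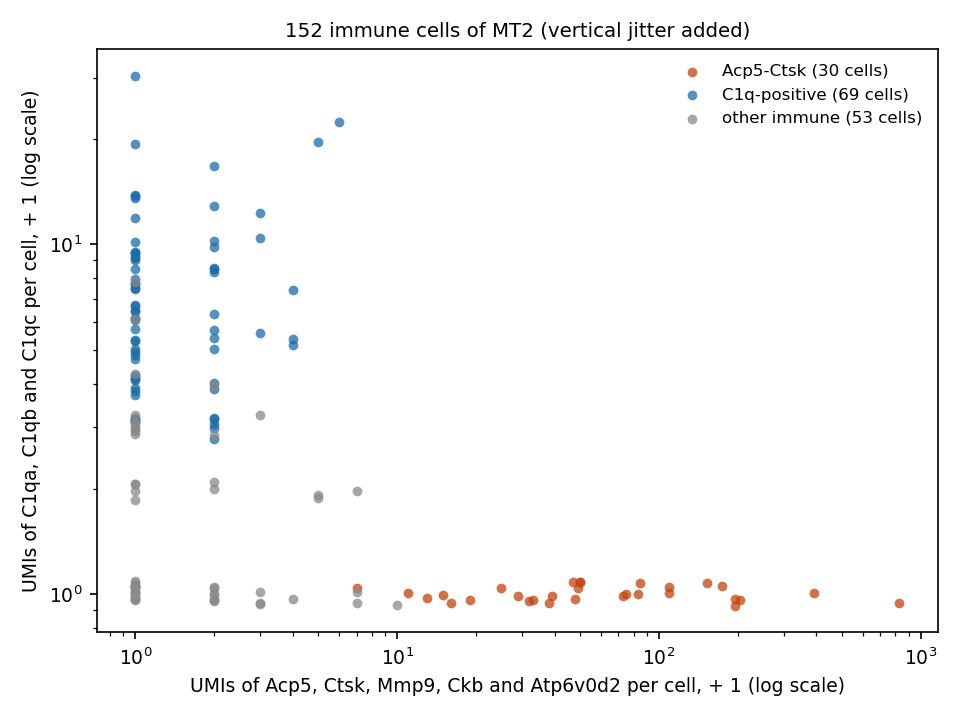
Each point is 1 of the 152 immune cells, with the summed UMIs of Acp5, Ctsk, Mmp9, Ckb and Atp6v0d2 plus 1 (horizontal, log) against those of C1qa, C1qb and C1qc plus 1 (vertical, log, with jitter). The 30 Acp5-Ctsk cells run along the bottom, from 6 to 829 UMIs of the 5 genes with 0 C1q UMIs, and the 69 C1q-positive cells have at most 5.

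Levels of myeloid genes in the Acp5-Ctsk cells differed from gene to gene. Tyrobp, Laptm5, Lyz2 and Ctss are selecting genes, so a cell with few of them had to carry others to be taken, and their values are a description. In replicates 1 to 3, Tyrobp stood at 917, 890.5 and 1442 CPM in them and at 737, 650.0 and 970.4 in C1q-positive cells, and Laptm5 at 764, 608 and 1011 and 954, 418 and 910.4. Lyz2 stood at 21.8, 43.4 and 0 CPM, 3 UMIs in all, against 8239.5, 7869 and 8774, and Ctss at 65.5, 43.4 and 129 against 2906, 1091 and 1971. The ranges of Tyrobp and Laptm5 overlapped between the classes, and Lyz2 and Ctss were far apart in each library. Csf1r, which this lineage shares, stood at 327, 282 and 323 CPM against 260.2, 92.9 and 140.1, Cd68 at 502, 717 and 882 against 173, 348 and 300.1, and Spi1, the myeloid transcription factor PU.1, at 306, 174 and 279.8 against 173, 92.9 and 110.0. H2-Aa had 1 UMI in the 30 cells, and Pf4, Ccr2, Il1b, Il7r, Ccl6 and Fcgr3 had 0, where 3 UMIs would be 21.7 CPM. Ccl9 was shared, at 786, 738 and 646 CPM against 694, 302 and 640.3.

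Further genes known from osteoclasts, also picked after the fact, are given as a description, and others that were looked at are not reported here. Dcstamp and Ocstamp, needed for cell fusion, stood at 131, 391 and 387 and 218, 304 and 194 CPM in the Acp5-Ctsk cells, and Oscar, an activating receptor, at 153, 152 and 108. Dcstamp was not confined to them, since some C1q-positive cells had 1 UMI of it. Nfatc1, the transcription factor that drives the osteoclast program, stood at 437, 282 and 215 CPM against 51.1, 45.8 and 50.8 in the other MT2 cells, which express it too. Tnfrsf11a, the receptor RANK, was seen in 14 of the 30 cells at 87.3, 109 and 108 CPM, in 6 of the 69 C1q-positive cells and in 12 of 10162 other MT2 cells. Its ligand Tnfsf11 (RANKL) was seen in 1075 of the other MT2 cells at 32.7, 35.8 and 35.6 CPM and had 1 UMI in the Acp5-Ctsk cells. Atp6v1a and Snx10, parts of the acid-secreting machinery, stood at 2052, 1368 and 1485 and 1768, 1281 and 1054 CPM against 347, 255 and 160.1 and 173, 116 and 100.0 in C1q-positive cells. Fn1, a gene of the tumor list, was uneven in the Acp5-Ctsk cells, at 0, 1520.3 and 108 CPM, with replicate 2 far above the others.

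Acp5 has several start sites, and 1 of them is shown because its promoter is the only one of 5 entries for these genes (3 of Acp5, 1 of Ctsk, 1 of Ckb) that holds TCACATGA, an E-box of the kind bound by MITF factors. The 150 bases before that start are given on the minus strand (RefSeq, GRCm38.p6, chr9:22130599-22130748), with the motif in capitals.
Acp5: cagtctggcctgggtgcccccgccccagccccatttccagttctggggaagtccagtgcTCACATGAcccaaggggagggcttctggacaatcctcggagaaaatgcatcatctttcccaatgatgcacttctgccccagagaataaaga
The motif began 91 bases before the start. On both strands (TCATGTGA on the other), it was found in 0.846% of the 32851 entries, and its absence from the Ctsk and Ckb windows says only that these letters are not there.

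Cells with these genes lay on both sides of the selection rule. Of 67 MT2 cells with 3 or more of the 5 genes, 30 met the rule and 37 did not, of which 8 had 2 of the selecting genes, 12 had 1 and 17 had 0. Whether the 37 are cells of the same kind was not tested: the tumor list made up 1.76%, 1.19% and 1.69% of their UMIs in replicates 1 to 3, against 0.840%, 1.08% and 0.727% in the Acp5-Ctsk cells. Of the 17 with 0 selecting genes, 15 had exactly 3 of the 5 genes, and among all 9877 MT2 cells with 0 selecting genes 3137 carried 1 of the 5 and 668 carried 2. With 4 or 5 of the genes, 27 of 45 met it and 18 did not. Among the 20 cells just outside the threshold, 8 (40.0%) had 3 or more of the 5 genes, beside 12 of 27 (44.4%) just inside it. Among cells with 6 or 7 selecting genes there were 0 of 53, which allows a share of up to 5.66%. C1q genes ran the other way, from 29.6% of cells with 3 selecting genes to 100% of the 19 cells with 7. Outside MT2, cells with 3 or more of the 5 genes numbered 0 in MT1 and MG1 and 2 in MG2.

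**Figure D4:**
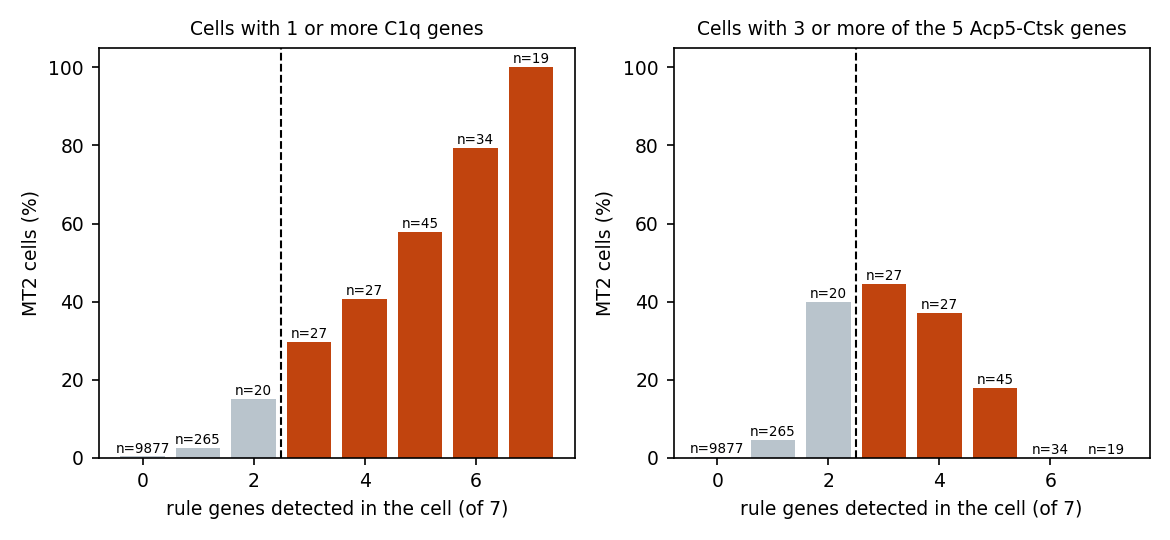
Percent of MT2 cells (vertical axes) with 1 or more C1q genes (left) and with 3 or more of Acp5, Ctsk, Mmp9, Ckb and Atp6v0d2 (right), by the number of the 7 selecting genes detected (horizontal), with the number of cells above each bar and a dashed line at the threshold. The share with C1q genes reached 100% at 7 genes, and the share with the 5 genes was 40.0% just below the threshold and 44.4% just above it.

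Most calls between C1q-positive and C1q-negative cells were lost without these 30 cells. Without them only 4, 15 and 12 C1q-negative cells were left in replicates 1 to 3. With replicates 2 and 3 alone, which have 5 or more cells a class, edgeR called 0 of 898 genes (76 at an unadjusted p under 0.05) and DESeq2 called 0 (4 at an unadjusted p under 0.05). With all 3 replicates edgeR called 1 of 839, Apoe, at a log2 fold change of 3.15 (SE 0.48) beside 3.53 with the 30 cells included. Fewer cells and genes entered these tests. H2-Aa was at a log2 fold change of 1.65 (adjusted p = 0.0874) in replicates 2 and 3, and 1.17 (adjusted p = 0.469) with all 3. The remaining 53 immune cells, neither C1q-positive nor Acp5-Ctsk, varied more between libraries: H2-Aa was at 3024, 323 and 576 CPM in them, Lyz2 at 8793, 2517 and 6983 and Acp5 at 56, 194 and 266. At least 2 class II genes were seen in 22 of these 53 cells (41.5%).

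**Figure D5:**
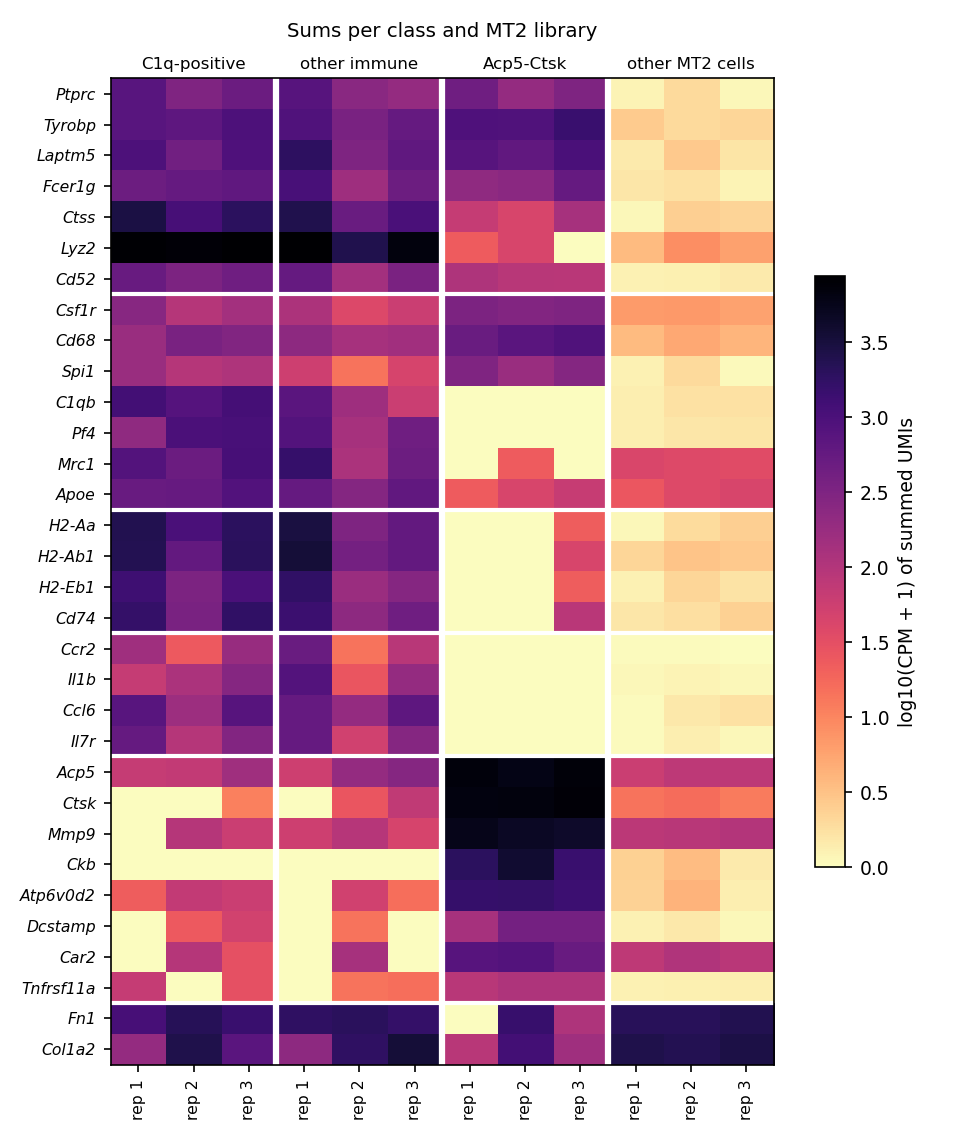
Summed UMIs of 32 genes as log10 of CPM plus 1 (color) in the 69 C1q-positive, 53 remaining and 30 Acp5-Ctsk immune cells and in the other MT2 cells, by replicate. In the Acp5-Ctsk columns C1qb is at 0, Lyz2 is at most 43.4 CPM and the class II genes appear in replicate 3 alone, while Acp5, Ctsk and Mmp9 are higher there than in the other columns.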

How the data were processed

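Drop-seq libraries of 12 samples were used as the table of UMI counts per gene and cell that the authors deposited, with 21743 genes and 21157 cells, values not normalized. Per the study's methods and processing notes, reads were processed with Drop-seq tools, aligned with STAR to GRCm38.p6, and cells with few genes, genes seen in few cells and extreme cells were removed per count table; the fewest detected genes in a cell here were 800. 0 columns were left without a library. Groups came from the labels' source names, and replicate numbers follow accession order and name libraries only.

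The members, lists and alternatives were chosen with earlier results of these data known. UMIs were summed per class and library (3 MT2 libraries), and CPM used all UMIs of a class and library. Sums were tested with edgeR 4.0.16 (filterByExpr, TMM, quasi-likelihood test, library as a block, Benjamini-Hochberg adjustment, threshold 0.05) in R 4.3.3, after a test on simulated data. The block pairs classes of the same library, which were prepared and sequenced together. The 8 selecting genes, and in the C1q contrast also the 3 C1q genes, were counted in no call; that contrast used libraries with 5 or more cells a class and library. Named genes were the 12 highest and 8 lowest fold changes among called genes with 30 or more UMIs in 1 class and the same direction in each library, plus members of the lists. Intervals are exact Clopper-Pearson (95%), and a count of 0 was bounded by 3 counts. Alternatives were DESeq2 1.42.0, other scaling (RLE), no filter, other marker thresholds, cells thinned to 1000 UMIs, no deepest 5% of cells, no block and each library left out. Those without the Acp5-Ctsk cells, with 5 of 7 genes, and the thinned C1q split were chosen after seeing the data. Other groups had too few immune cells for a test, and the p-values measure the spread between libraries of 1 tumor, which may be technical. Promoters came from RefSeq tables of GRCm38.p6, and gene positions from GENCODE M21. Some genes are not reported here.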

Additional observations from a re-analysis of the deposited data

How the results depend on the processing

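The counts of genes called in the immune contrast, 831 higher and 1013 lower, ranged from 346 to 770 and from 183 to 1219 when each library was left out. Thinning cells to 1000 UMIs gave 373 and 542, DESeq2 gave 227 lower, and leaving out the Acp5-Ctsk cells (chosen after seeing the data) gave 580 lower. Without those cells the log2 fold change of Mmp9 turned from positive to -0.82 (adjusted p = 0.181), and Acp5 and Ctsk were no longer called. This follows from the construction, since those cells hold nearly all UMIs of these genes.

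For the C1q contrast, 66 higher and 81 lower, leaving out each library gave 55 to 107 and 52 to 138. DESeq2 gave 24 and 14. Without the library block, which pairs the classes of a library, the counts were 25 and 24. Thinning before the split (chosen after seeing the data) gave 16 and 6, and leaving out the deepest 5% of cells gave 40 and 16. No filter on low counts gave 150 lower. Without the Acp5-Ctsk cells (chosen after seeing the data) edgeR and DESeq2 both gave 0 and 0 in replicates 2 and 3, and edgeR gave 1 and 0 with all 3 replicates. Fewer cells and genes entered the thinned and reduced fits, and otherwise the cause was not tested.

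The share of immune cells in replicate 2 was 0.698% with at least 4 genes and 0.492% after thinning, and in replicate 3 it was 1.61% after thinning. Each immune sum holds 109784 to 214162 UMIs, so 1 UMI is 4.67 to 9.11 CPM, which limits what low genes can show in a single library.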
